A study of Drosophila melanogaster with 9 samples.

Results

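Genes of the blood cells of *Drosophila* larvae were compared after pinching with forceps, after clean injury with a needle and in untreated larvae. The 10 genes, *Hml*, *NimC1*, *eater*, *He*, *crq*, *drpr*, *atilla*, *PPO3*, *lz* and *srp*, were chosen by name as markers or receptors of larval hemocytes, and a probe set was taken as theirs where the platform's annotation gives that symbol. All 10 genes were measured, each by 1 probe set, out of 18769 probe sets for 11982 genes with a probe set of their own. RNA came from whole 3rd instar larvae of the *yw* strain on 9 Affymetrix arrays, with 3 arrays for larvae 4 h after pinching by forceps, 3 for larvae 4 h after pricking with a tungsten needle that carried no bacteria, and 3 for larvae that were not treated. Per the methods, larvae to be pinched were washed out of their vials with water, and pinched larvae were afterwards kept on apple juice agar. No array of uninjured larvae handled in the same way and kept for 4 h was used here, so injury cannot be told apart from elapsed time, handling and the change of food in a comparison with untreated larvae. The labels name the arrays of a group biological replicates, but the sources used here do not say which larvae went to which array.

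The larval blood of the fly holds plasmatocytes, which engulf bacteria and dying cells, crystal cells, which carry enzymes for melanization, and lamellocytes, flat cells that form in numbers when a parasitoid wasp attacks and that can also appear after wounding. Plasmatocytes recognise their targets through surface receptors with repeated EGF-like modules, such as NimC1, Eater and Draper, and through the scavenger receptor Croquemort. The GATA factor Serpent is needed to make all hemocytes and also acts in the fat body, and the RUNX factor Lozenge directs the crystal cell fate.

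Values are the deposited signals on the log2 scale, where 1 unit stands for a doubling, and are given for replicates 1, 2 and 3 in that order. Medians of the arrays lay between 4.94 and 5.08. Each probe set was tested with limma across all 9 arrays, and a call of higher or lower needed an adjusted p (Benjamini-Hochberg over 18769 probe sets) under 0.05. Of the 10 genes, all but *PPO3* and *lz* lay between percentile 71.7 and percentile 96.2 of all probe sets by mean signal. *PPO3* lay at percentile 35.3 and *lz* at percentile 30.2. No detection calls were used here, so whether *PPO3* and *lz* stood above background is not known. In whole larvae, fewer hemocytes and less RNA per hemocyte cannot be told apart, and several of these genes are also expressed in other tissues.

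After pinching, 2 of the 10 genes were higher than in untreated larvae, *drpr* and *atilla*, and none was lower, beside 4.21% higher and 4.99% lower among all probe sets. After clean injury, 3 of the 10 were higher, *He*, *drpr* and *atilla*, and none was lower, beside 5.22% higher and 4.93% lower among all probe sets. Between pinching and clean injury 0 of the 10 were called by limma, where 0.00533% of all probe sets were called in either direction. At an unadjusted p under 0.05, the numbers were 4 genes for pinching against untreated larvae, 6 for clean injury against untreated larvae and 1 for pinching against clean injury. The same unadjusted threshold was passed by 23.5%, 25.0% and 1.66% of all probe sets in these comparisons. With the methods' t-test, likewise unadjusted, the numbers were 3, 5 and 0 of the 10 genes, beside 17.8%, 22.7% and 2.11% of all probe sets. The median log2 change of the 10 genes was 0.21 after pinching and 0.40 after clean injury, beside -0.02 and -0.04 over all probe sets. These shares and medians cover all probe sets, most of them dimmer than the 10 genes other than *PPO3* and *lz*. Values for probe sets of like signal are not given here, so a difference from the shares is not read as enrichment. Arrays with the same replicate number deviated together, and with this number as a block 4 genes were called higher and 0 lower after pinching, beside 7.60% higher and 8.76% lower among all probe sets. With the block, 5 genes were higher and 1 was lower after clean injury, beside 10.1% higher and 8.58% lower among all probe sets. Between pinching and clean injury the block gave 0 calls among the 10, where it called 0.0426% of all probe sets. Both comparisons with untreated larvae use the same 3 untreated arrays, so their results are not independent of each other. Statements below that all arrays of a group lay above or below those of another describe these arrays. The share of all probe sets that separate in this way is not given here, so separation alone is not a call.

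**Figure D1:**
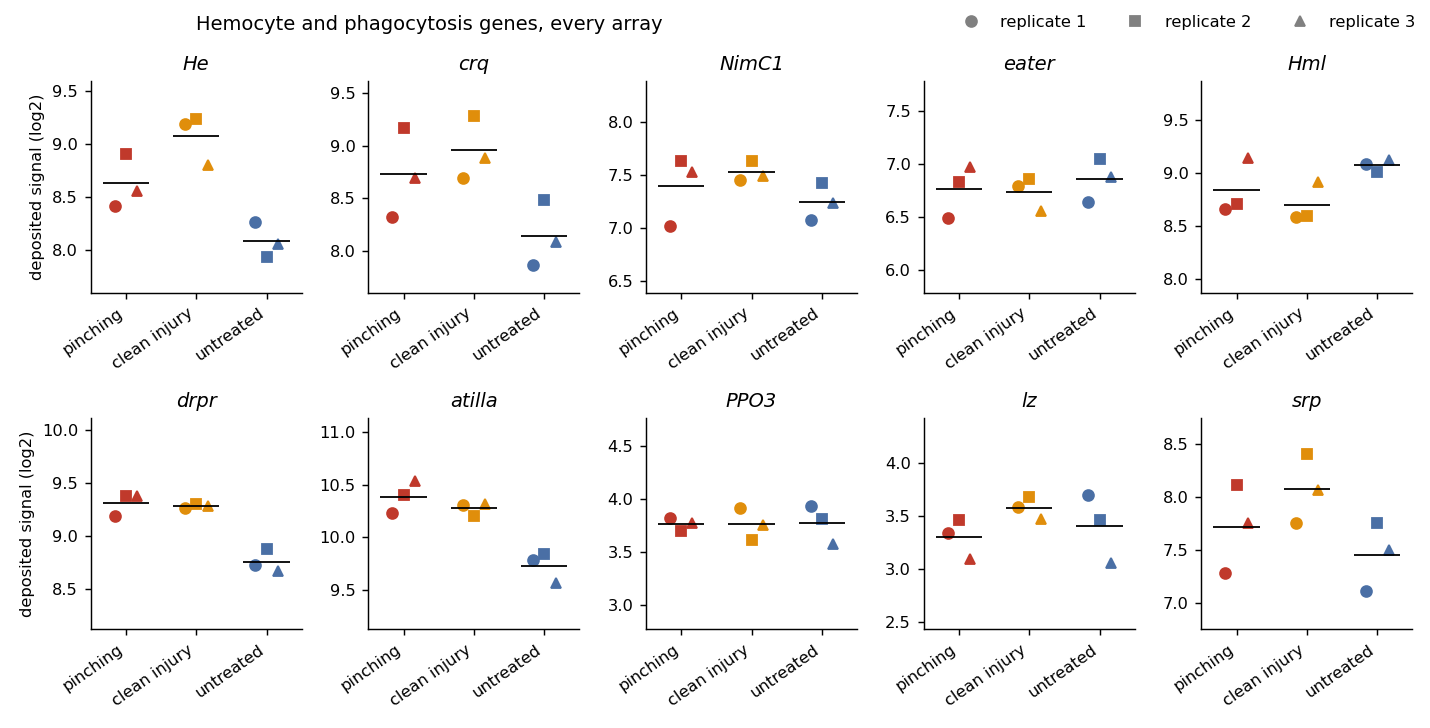
Deposited signal (log2) of the 10 genes on each array after pinching, after clean injury and in untreated larvae. Symbols stand for replicate numbers, horizontal lines for group means (n = 3 arrays), and every panel spans the same range on the log2 scale. The injured arrays of *drpr* and *atilla* all lie above the untreated ones, while the groups of *PPO3* and *eater* overlap.

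The genes read here as plasmatocyte markers, *He*, *crq*, *NimC1*, *eater* and *Hml*, had log2 changes of either sign. Of these, *He* alone was called without the block, after clean injury. *He*, which encodes Hemese, a surface glycoprotein of hemocytes, was at 8.42, 8.91 and 8.56 (log2 signal) after pinching, at 9.19, 9.24 and 8.80 after clean injury, and at 8.26, 7.94 and 8.05 in untreated larvae. Every array of injured larvae was above every untreated array, and pinching replicate 2 reached into the range of clean injury. The rise after clean injury was 1.99-fold (log2 change 0.99, standard error 0.16, adjusted p = 0.00462), and the call held whichever array was left out. The log2 change after pinching was 0.54 (standard error 0.16), which missed the threshold without the block (adjusted p = 0.0689) and passed it with the block (adjusted p = 0.0366). Pinching minus clean injury was -0.45 on the log2 scale (95% interval -0.81 to -0.08). *He* was the 1 gene of the 10 past an unadjusted p of 0.05 in that comparison, and it did not pass after adjustment.

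*crq*, which encodes the scavenger receptor Croquemort, a CD36 family protein that takes up dying cells, was at 8.32, 9.16 and 8.69 (log2 signal) after pinching, at 8.69, 9.28 and 8.88 after clean injury, and at 7.87, 8.49 and 8.08 in untreated larvae. The clean injury arrays all stood above the untreated ones, whereas pinching replicate 1 stood below untreated replicate 2. Without the block the log2 change was 0.58 after pinching (standard error 0.24, adjusted p = 0.170) and 0.80 after clean injury (standard error 0.24, adjusted p = 0.0569). Within replicate numbers, pinched minus untreated was 0.45, 0.68 and 0.61, and clean injury minus untreated was 0.82, 0.79 and 0.80. The differences within numbers varied far less than the arrays of a group, and with the block both calls passed, with an adjusted p of 0.00364 after pinching and 0.000514 after clean injury. Its probe set is of a type that can bind transcripts of more than 1 gene. The same holds for those of *ced-6*, *Dscam1*, *pes*, *Stat92E*, *Col4a1*, *cher* and *Idgf3*, list genes given below.

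*NimC1*, a Nimrod receptor that binds bacteria, was at 7.03, 7.64 and 7.53 (log2 signal) after pinching, at 7.46, 7.63 and 7.50 after clean injury, and at 7.07, 7.42 and 7.24 in untreated larvae. The clean injury arrays lay just above the untreated ones, and pinching replicate 1 was the lowest array of all. Its log2 change was 0.15 after pinching (95% interval -0.21 to 0.52, adjusted p = 0.617) and 0.28 after clean injury (95% interval -0.08 to 0.65, adjusted p = 0.310), with no call with or without the block. *eater*, a related receptor for bacteria, was at 6.49, 6.82 and 6.96 after pinching, at 6.79, 6.85 and 6.55 after clean injury, and at 6.64, 7.04 and 6.87 in untreated larvae. The 3 groups of *eater* overlapped throughout, with a log2 change of -0.09 after pinching (95% interval -0.44 to 0.25, adjusted p = 0.767) and -0.12 after clean injury (95% interval -0.46 to 0.22, adjusted p = 0.657).

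*Hml*, which encodes Hemolectin, a large plasmatocyte protein that takes part in clotting, had the most negative log2 change of the 10 genes against untreated larvae after either injury. It was at 8.67, 8.71 and 9.14 (log2 signal) after pinching, at 8.58, 8.59 and 8.92 after clean injury, and at 9.09, 9.01 and 9.12 in untreated larvae. The clean injury arrays all lay below the untreated ones, while pinching replicate 3 was the highest array of all. The log2 change after clean injury was -0.38 (standard error 0.15, 95% interval -0.70 to -0.05), which missed the threshold without the block (adjusted p = 0.148) and passed it with the block (adjusted p = 0.0427). After pinching it was -0.23 (standard error 0.15), and no call was made without the block (adjusted p = 0.380) or with it (adjusted p = 0.197). *He* and *Hml*, both read as hemocyte markers, had log2 changes of opposite sign in the same larvae. The difference *He* minus *Hml* within an array, chosen after the values were seen, was -0.25, 0.20 and -0.59 after pinching, 0.61, 0.64 and -0.12 after clean injury, and -0.83, -1.07 and -1.07 in untreated larvae. Two-sided exact permutation tests of this difference gave p = 0.1 for pinching and p = 0.1 for clean injury, each against untreated larvae. The same exact permutation test gave p = 0.2 for pinching against clean injury, and 0.1 is the smallest p that 3 arrays against 3 can give. Because the difference was chosen from the values of these same arrays, the permutation tests cannot decide whether *He* and *Hml* moved apart. No conclusion is drawn from them.

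*drpr* encodes Draper, the engulfment receptor through which plasmatocytes, glia and epithelial cells clear dying cells and debris. It was at 9.19, 9.37 and 9.37 (log2 signal) after pinching, at 9.26, 9.30 and 9.28 after clean injury, and at 8.72, 8.88 and 8.67 in untreated larvae. All injured arrays stood above all untreated arrays, and the clean injury arrays lay within the range of the pinched ones. *drpr* rose 1.47-fold after pinching (log2 change 0.55, standard error 0.10, adjusted p = 0.00866) and 1.44-fold after clean injury (log2 change 0.52, standard error 0.10, adjusted p = 0.0116). The call after pinching held without any 1 array, whereas that after clean injury was lost without clean injury replicate 2 (adjusted p = 0.0602) or untreated replicate 3 (adjusted p = 0.0586). The difference between pinching and clean injury was 0.03 on the log2 scale (95% interval -0.20 to 0.26).

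**Figure D2:**
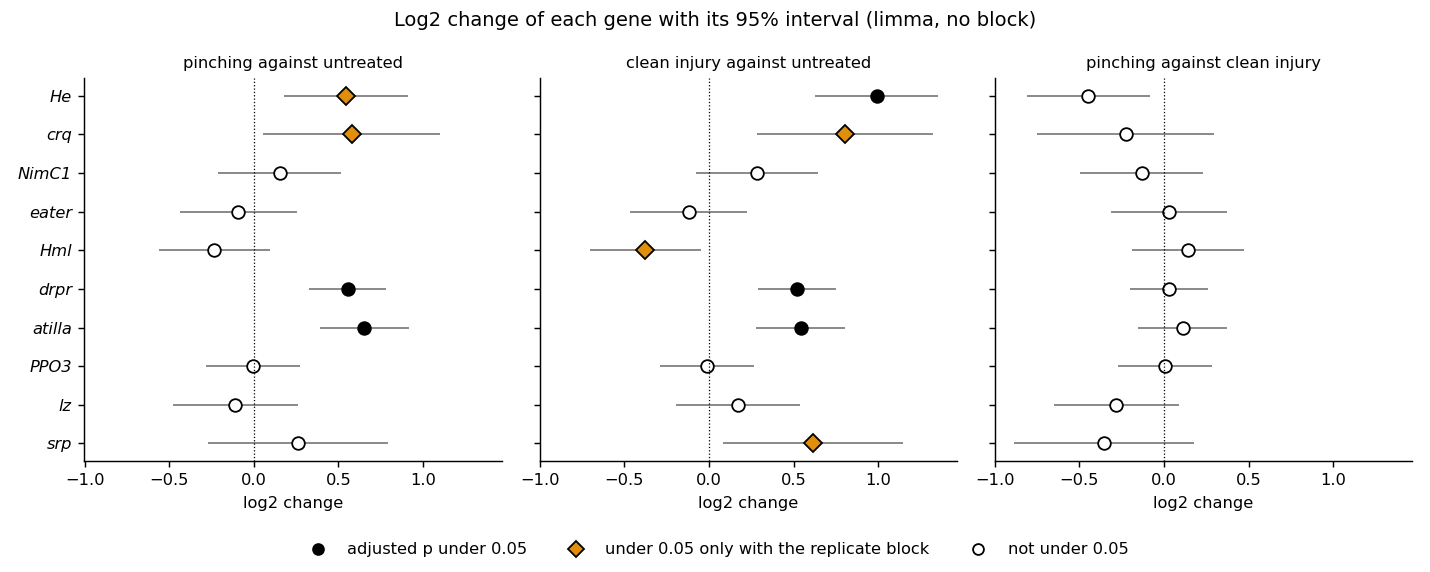
Log2 change of each gene with its 95% interval (n = 3 arrays per group) for pinching against untreated larvae, clean injury against untreated larvae and pinching against clean injury. Filled circles passed an adjusted p of 0.05, diamonds passed it with the replicate block alone, and open circles did not pass. *drpr* and *atilla* passed against untreated larvae after both injuries, and the panel of pinching against clean injury holds open circles alone.

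Of the lamellocyte markers, *atilla* was called after both injuries and *PPO3*, at a low signal, after neither, and the difference between the genes was not tested. *atilla*, which encodes a GPI-anchored surface protein whose antibody marks lamellocytes, was at 10.23, 10.40 and 10.53 (log2 signal) after pinching, at 10.31, 10.21 and 10.31 after clean injury, and at 9.79, 9.84 and 9.57 in untreated larvae. All injured arrays stood above all untreated ones. Already in untreated larvae *atilla* had the highest mean signal of the 10 genes, and which cells the signal came from was not tested. *atilla* rose 1.57-fold after pinching (log2 change 0.65, standard error 0.12, adjusted p = 0.00733), a call that held whichever array was left out, and 1.46-fold after clean injury (log2 change 0.54, standard error 0.12, adjusted p = 0.0174). The call after clean injury was lost without clean injury replicate 1 (adjusted p = 0.0681), clean injury replicate 2 (adjusted p = 0.0565) or untreated replicate 3 (adjusted p = 0.0800). *PPO3*, the prophenoloxidase of lamellocytes, was at 3.82, 3.70 and 3.77 after pinching, at 3.92, 3.61 and 3.75 after clean injury, and at 3.93, 3.81 and 3.57 in untreated larvae. The groups of *PPO3* overlapped at this low signal, with log2 changes of -0.01 after pinching (95% interval -0.28 to 0.27) and -0.01 after clean injury (95% interval -0.29 to 0.27), both of which turned positive after quantile normalization.

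*lz*, the crystal cell factor, was at 3.34, 3.46 and 3.09 (log2 signal) after pinching, at 3.58, 3.68 and 3.48 after clean injury, and at 3.70, 3.46 and 3.06 in untreated larvae. The untreated arrays spanned the pinched ones, and every pinched array lay below every clean injury array. The log2 change was -0.11 after pinching (95% interval -0.48 to 0.26, adjusted p = 0.736) and 0.17 after clean injury (95% interval -0.20 to 0.54, adjusted p = 0.544), and pinching minus clean injury was -0.28 (95% interval -0.65 to 0.09), none of which passed. *srp*, which encodes Serpent, was at 7.28, 8.11 and 7.75 after pinching, at 7.75, 8.40 and 8.06 after clean injury, and at 7.11, 7.75 and 7.50 in untreated larvae. The clean injury arrays of *srp* stood above the untreated ones, replicate 1 by less than the rounding shown, and the pinched arrays lay among them. The log2 change of *srp* was 0.26 after pinching (standard error 0.24), with no call without the block (adjusted p = 0.553) or with it (adjusted p = 0.109). After clean injury it was 0.62 (standard error 0.24), which did not pass without the block (adjusted p = 0.143) and passed with it (adjusted p = 0.00215), the differences within replicate numbers being 0.64, 0.65 and 0.56. Between pinching and clean injury the log2 difference of *srp* was -0.36, with differences of -0.47, -0.29 and -0.31 within replicate numbers, and it did not pass with the block either (adjusted p = 0.843).

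Several of the genes shared a pattern over the replicate numbers. In each of the 3 groups, replicate 2 was the highest array and replicate 1 the lowest for *crq*, *srp* and *NimC1*, whereas replicate 3 was the highest for *Hml*. Deviations from the group means, over 9 arrays, correlated with r = 0.98 between *crq* and *srp*, 0.91 between *NimC1* and *srp*, 0.89 between *NimC1* and *crq*, 0.86 between *NimC1* and *drpr* and 0.84 between *NimC1* and *eater*. Between *He* and *Hml* r was -0.40. These values describe arrays that share RNA, hybridization and possibly a replicate batch, and what the replicate numbers stand for is not stated in the sources used here.

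**Figure D3:**
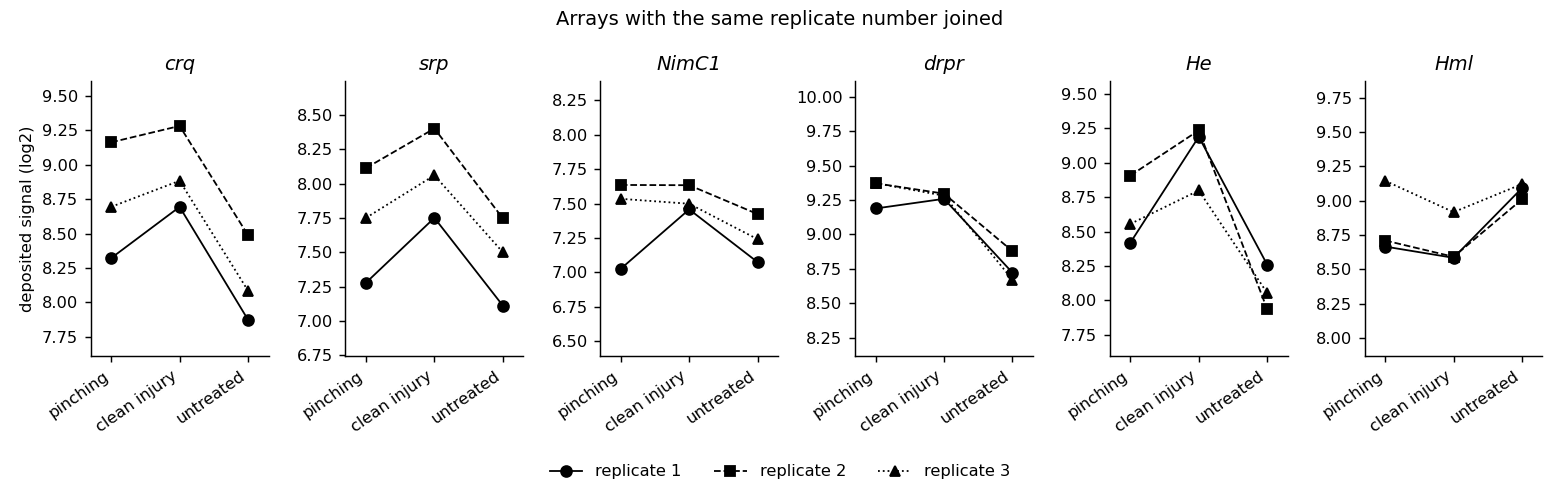
Deposited signal (log2) of *crq*, *srp*, *NimC1*, *drpr*, *He* and *Hml* after pinching, after clean injury and in untreated larvae, with arrays of the same replicate number joined by a line. Lines of *crq* and *srp* run nearly parallel, with clean injury minus untreated at 0.82, 0.79 and 0.80 for *crq*, while those of *He* cross.

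For the called genes, the probe sets with the most similar profile over the 9 arrays were taken from 13646 others that name 1 gene. *He* was closest to *CG4250* (r = 0.98), *CG32599* (r = 0.98) and *Spn88Eb* (r = 0.97), the last of which encodes a serpin. *drpr* was closest to *CG7988* (r = 0.999), *CG7824* (r = 0.996) and *Ppt2*, a palmitoyl-protein thioesterase (r = 0.99). *atilla* was closest to *bigmax* (r = 0.99), a partner of the sugar sensor Mondo, *Sirup* (r = 0.98) and *Rab19* (r = 0.98). These r values are the highest among the 13646 others and include the differences between the groups. Shared regulation was not tested.

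Related genes were counted from lists of receptors, engulfment machinery, regulators and further cell markers. Their counts stand beside the shares of all probe sets given above, which after pinching were 4.21% higher and 4.99% lower (7.60% and 8.76% with the block) and after clean injury 5.22% higher and 4.93% lower (10.1% and 8.58% with the block). Among the scavenger receptors and other Nimrod genes, 18 of 20 had a probe set of their own, and 2 were higher and 1 lower after either injury. *ninaD*, a CD36 family receptor known for carotenoid uptake in the gut, fell by 1.80 on the log2 scale after pinching (adjusted p = 0.000802) and fell by 1.88 after clean injury (adjusted p = 0.000594). *Dscam1*, an immunoglobulin receptor of neurons and hemocytes, rose by 0.55 after pinching (adjusted p = 0.00876) and by 0.67 after clean injury (adjusted p = 0.0034), both on the log2 scale. The calls of *ninaD* and *Dscam1* held whichever array was left out. Another probe set of *Dscam1*, at a low signal, had log2 changes of -0.14 after pinching and -0.08 after clean injury. *pes*, another CD36 family receptor, rose by 0.49 after pinching (adjusted p = 0.0334) and by 0.45 after clean injury (adjusted p = 0.0438). The call of *pes* was lost without any 1 of 6 arrays after pinching (adjusted p up to 0.133) and any 1 of 7 after clean injury (adjusted p up to 0.153), the exceptions being pinching replicate 1 and untreated replicate 2 in both and clean injury replicate 3 after pinching. The remaining 15 receptors did not pass in either comparison, and the list's median log2 change was 0.14 after pinching and 0.18 after clean injury. With the block, 3 were higher and 1 lower after pinching, and 4 were higher and 1 lower after clean injury.

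Of the engulfment machinery that acts downstream of receptors, 9 of 19 genes had a probe set of their own, and 2 were higher and 0 lower after either injury. *ced-6* encodes the adaptor that binds the tail of Draper. Its log2 signal was 9.27, 9.74 and 9.40 after pinching, 9.501, 9.89 and 9.36 after clean injury, and 8.31, 8.94 and 8.23 in untreated larvae, so that no injured array reached down to an untreated one. It rose by 0.97 after pinching (adjusted p = 0.018) and by 1.09 after clean injury (adjusted p = 0.0103) on the log2 scale. Both calls were lost without untreated replicate 1 or 3, and also without pinching replicate 2 after pinching (adjusted p up to 0.0828) and without clean injury replicate 2 after clean injury (adjusted p up to 0.0531). *Rab14*, a GTPase of phagosome maturation, rose by 0.54 after pinching (adjusted p = 0.0133) and by 0.49 after clean injury (adjusted p = 0.0202), and its call after clean injury was lost without clean injury replicate 1 or 2 or untreated replicate 1 or 3 (adjusted p up to 0.0775). The list's median log2 change was 0.26 after pinching and 0.45 after clean injury, and 7 of the 9 genes did not pass in each comparison. With the block, 3 were higher after pinching and 4 after clean injury.

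Of hemocyte transcription factors and regulators, 15 of 18 were measured, with 2 higher and 0 lower after pinching and 4 higher and 0 lower after clean injury. *zfh1*, a zinc finger repressor of hemocyte differentiation, was at 6.71, 6.55 and 6.47 (log2 signal) after pinching, at 6.76, 6.85 and 6.51 after clean injury, and at 5.69, 5.79 and 5.72 in untreated larvae, and the injured arrays all stood above the untreated ones. It rose by 0.84 after pinching (adjusted p = 0.00208) and by 0.97 after clean injury (adjusted p = 0.000942) on the log2 scale, and both calls held whichever array was left out. *dome*, the receptor of the JAK-STAT pathway, rose by 0.50 after pinching (adjusted p = 0.0446) and by 0.68 after clean injury (adjusted p = 0.0105). After clean injury *Stat92E*, the transcription factor of that pathway, rose by 0.66 (adjusted p = 0.0328) and *klu*, a zinc finger factor of crystal cells, by 0.53 (adjusted p = 0.0205). The call of *dome* was lost without pinching replicate 1 or 2, clean injury replicate 2 or any untreated array after pinching (adjusted p up to 0.152) and without clean injury replicate 2 after clean injury (adjusted p = 0.0559). The call of *Stat92E* was lost without any clean injury array or untreated replicate 1 or 3 (adjusted p up to 0.148), and that of *klu* without clean injury replicate 1 or 2 or untreated replicate 1 or 3 (adjusted p up to 0.0949). With the block, 6 of the list were higher after pinching, beside 7.60% of all probe sets, and 7 after clean injury, beside 10.1%.

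Among the other plasmatocyte genes, the calls without the block were all falls. All 8 were measured, and 0 were higher and 2 lower after pinching and 0 higher and 3 lower after clean injury. *vkg* and *Col4a1* encode the collagen IV chains, which the fat body makes as well as hemocytes. *vkg* was at 8.99, 8.93 and 9.52 (log2 signal) after pinching, at 8.83, 8.81 and 9.49 after clean injury, and at 10.57, 9.91 and 10.39 in untreated larvae. No array of injured larvae reached up to an untreated one. *vkg* fell by 1.14 after pinching (adjusted p = 0.0145) and fell by 1.24 after clean injury (adjusted p = 0.00932) on the log2 scale. *Col4a1* fell by 0.93 after pinching (adjusted p = 0.0384) and fell by 1.13 after clean injury (adjusted p = 0.0164). *Pxn*, the extracellular matrix enzyme Peroxidasin, fell by 0.64 after clean injury (adjusted p = 0.0154). After pinching, the call of *vkg* was lost without pinching replicate 2 or untreated replicate 1 or 3 (adjusted p up to 0.0669) and that of *Col4a1* without pinching replicate 1 or 2, clean injury replicate 1 or untreated replicate 1 or 3 (adjusted p up to 0.140). After clean injury, the call of *vkg* was lost without clean injury replicate 2 (adjusted p = 0.0507), that of *Pxn* without clean injury replicate 2 or untreated replicate 1 (adjusted p up to 0.0834), and that of *Col4a1* without clean injury replicate 1 or 2 or untreated replicate 1 or 3 (adjusted p up to 0.0797). With the block, 4 were lower after pinching, and 5 were lower and 1 higher after clean injury.

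Of the other crystal cell genes, all 4 were measured and 0 were called after pinching, where *klu* came nearest with a log2 change of 0.40 (adjusted p = 0.0686). With the block *klu* was higher after pinching (adjusted p = 0.0346). After clean injury *klu* was higher, as given above, and *PPO1*, a prophenoloxidase of crystal cells, fell by 0.68 on the log2 scale (adjusted p = 0.042), a call lost without pinching replicate 2, clean injury replicate 1 or 2 or any untreated array (adjusted p up to 0.177). With the block *PPO2*, the other prophenoloxidase of crystal cells, was lower as well after clean injury (log2 change -0.77, adjusted p = 0.0108 with the block and 0.0811 without it). Of 8 other lamellocyte genes, 1 was higher and 1 lower after pinching, and 2 were higher and 1 lower after clean injury. *betaTub60D*, a tubulin also used in muscle, rose by 1.01 after pinching (adjusted p = 0.024) and by 1.05 after clean injury (adjusted p = 0.0193), and *msn*, a kinase of the JNK pathway, rose by 0.75 after clean injury (adjusted p = 0.0334). *cher*, the actin crosslinker filamin, fell by 0.39 after pinching (adjusted p = 0.0361) and fell by 0.54 after clean injury (adjusted p = 0.00742), and of these calls in lamellocyte genes that of *cher* after clean injury alone held without each array. The call of *betaTub60D* was lost after pinching without pinching replicate 1 or 2 or any untreated array (adjusted p up to 0.0925), and after clean injury without clean injury replicate 1 or 2 or untreated replicate 1 or 3 (adjusted p up to 0.0782). That of *msn* was lost without clean injury replicate 2 or 3 or untreated replicate 1 or 3 (adjusted p up to 0.149), and that of *cher* after pinching without any array other than pinching replicate 1 (adjusted p up to 0.124). With the block 2 lamellocyte genes were higher and 1 lower after pinching, and 3 were higher and 1 lower after clean injury. Of clotting genes, 9 of 11 were measured, and 1 was higher after pinching, *Idgf3*, a chitinase-like protein of the clot, with a log2 rise of 0.73 (adjusted p = 0.00825). *Idgf3* also rose by 0.94 after clean injury (adjusted p = 0.00239), and *PPO1*, which stands in this list too, was lower. With the block, 1 clotting gene was higher and 2 were lower after pinching, beside 7.60% and 8.76% of all probe sets, and 1 was higher and 4 were lower after clean injury, beside 10.1% and 8.58%. The falls with the block were *Tig*, a matrix protein of hemocytes (log2 change -0.38 after pinching and -0.39 after clean injury), *apolpp*, the main lipoprotein of the hemolymph (-0.48 and -0.51), and, after clean injury, *PPO1* and *PPO2*. Between pinching and clean injury 0 genes of the 7 lists were called by limma with or without the block. The smallest p of each list in that comparison belonged to *Sr-CI* (log2 difference -0.27) among the receptors, *scb* (-0.19) in the engulfment list, *gcm* (-0.27) among the regulators, *Pxn* (0.36) among plasmatocyte genes, *ItgaPS5* (-0.28) among lamellocyte genes, and *PPO2* (0.42) in both the crystal cell and the clotting list.

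**Figure D4:**
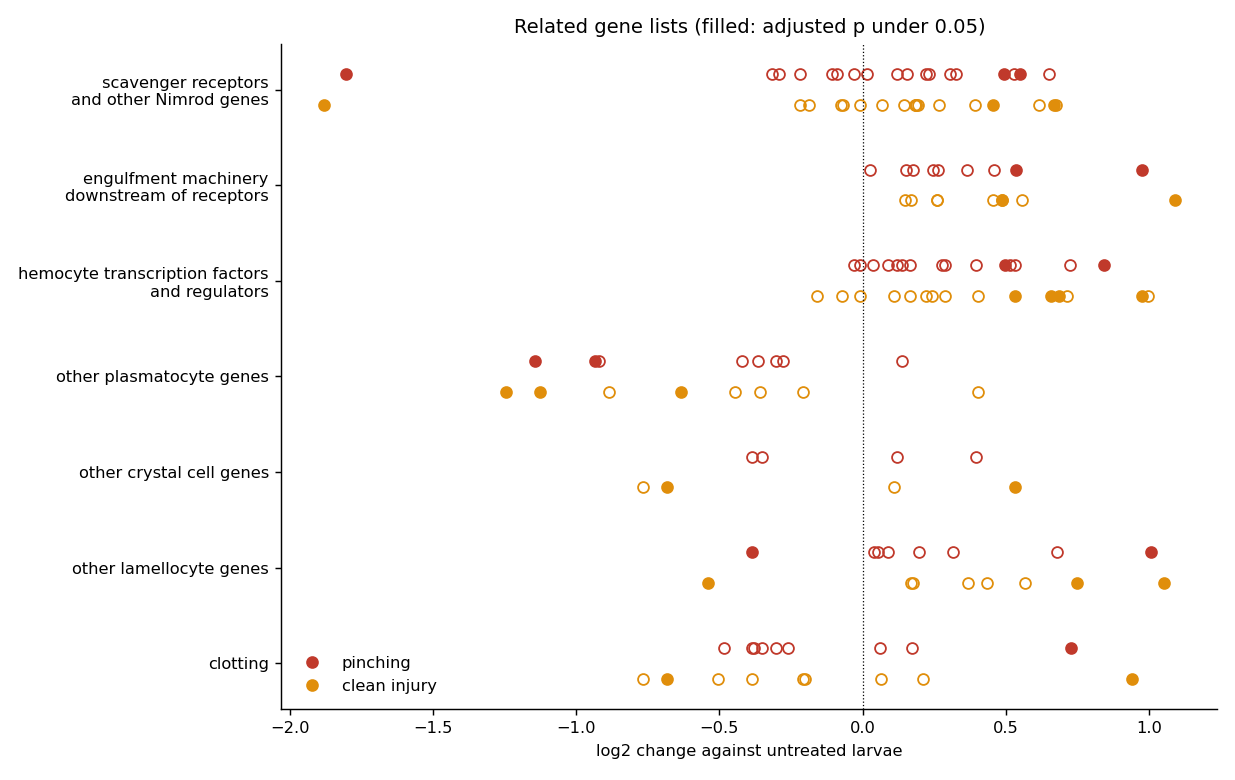
Log2 change against untreated larvae of each measured gene of the 7 related lists after pinching (upper line of each list) and after clean injury (lower line). Filled points passed an adjusted p of 0.05. Calls among engulfment genes and regulators lie to the right of 0, those among other plasmatocyte genes lie to the left, and the point farthest to the left is *ninaD* at -1.80 after pinching and -1.88 after clean injury.

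Markers of other tissues that a whole larva holds were read beside these results. Measured were 4 of 7 fat body genes, 6 of 10 body wall muscle genes, 7 of 7 salivary gland genes and 4 of 5 nervous system genes. None of these was called without the block at the probe set read for it. For the muscle gene *sls*, another probe set had log2 changes of -0.71 after pinching and -1.11 after clean injury. A further one had 0.17 and -0.096, and calls of these other probe sets are not given here. Of 7 midgut genes, *lambdaTry* fell by 1.54 after pinching (adjusted p = 0.00535) and fell by 1.48 after clean injury (adjusted p = 0.00614), and *alphaTry* rose by 1.13 after clean injury (adjusted p = 0.0412). With the block, 1 fat body gene and 1 muscle gene were lower and 1 salivary gland gene was higher after pinching, as was *alphaTry* of the midgut (log2 change 1.05, adjusted p = 0.0134 with the block and 0.0581 without it). After clean injury the block gave 1 fat body gene higher and 1 lower, 3 muscle genes lower and 3 salivary gland genes higher. The summed fat body signal, on the log2 scale, ranged from 15.21 to 15.30 after pinching, from 15.23 to 15.31 after clean injury and from 15.20 to 15.40 in untreated larvae. The summed muscle signal ranged from 14.44 to 14.86 after pinching, from 14.33 to 14.76 after clean injury and from 14.62 to 14.86 in untreated larvae. That of the midgut ranged from 13.52 to 13.70 after pinching, from 13.47 to 13.61 after clean injury and from 13.09 to 13.54 in untreated larvae. The ranges of these 3 tissues overlapped between the groups. Each sum adds signals off the log scale, so its strongest genes weigh most, and the overlap does not show that tissue makeup was unchanged. The part of tissue makeup in the changes of the hemocyte genes was not tested.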

How the data were processed

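Whole *yw* larvae had been hybridized to 9 arrays, 3 for each group. The authors deposited 1 value per probe set and array, taken as log2 because the values lie between 1.60 and 14.40. The methods name R, with background correction and normalization not given in the sources used here. No further scaling was done. Gene names came from the platform annotation, checked by gene identifier against RefSeq, which changed 0 symbols. Of 18952 probe sets, 183 controls were left out and 18769 tested, of which 13647 name 1 gene, 402 several and 4720 none here. limma 3.58.1 in R 4.3.3 fitted a mean per group to all 9 arrays (lmFit, contrasts.fit, eBayes, prior of 4.25 degrees of freedom), two-sided, with Benjamini-Hochberg adjustment over all probe sets and a threshold of 0.05. The fit was run on simulated data with independent noise on each array. That simulation lacks the shared deviations of arrays with equal replicate numbers, so it says nothing about calls that depend on the block. Python 3.11.15, pandas 2.3.3 and matplotlib 3.10.9 made tables and plots. With 3 arrays per group, and larvae not traced to arrays in the sources used here, p-values measure the spread between these arrays, which limits the precision.

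For a list gene the probe set of highest mean was read, and those naming several genes were not used. Among called list genes, *Dscam1*, *klu*, *Pxn* and *Idgf3* have another probe set. After pinching and after clean injury its log2 change was 0.05 and -0.098 for *klu* and -0.14 and -0.08 for *Pxn*. Both lay at low signal, as did that of *Dscam1*, given above. The log2 changes for *Idgf3* were 0.72 and 0.97. Every one of the 10 genes was named. Of each list, called genes were named, at most 4 per comparison by smallest p, or the gene with the smallest p where none was called. The genes and the lists were chosen with earlier results of these data known.

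Arrays that carry equal replicate numbers deviated together from their group means in each of 9 pairs (r from 0.189 to 0.548). In the 18 pairs of unequal numbers r was -0.463 to 0.16, which is no separate evidence because deviations sum to 0 in a group. In an alternative fit, with the replicate block, samples were therefore paired by number, an inference from the values, since the labels state no pairing. The planned fit has no block, and the blocked value is given beside it where it changes a call of the 10 genes or the count of a list. Alternatives were quantile normalization, median centring, a fit without the dimmest 40% of probe sets, fitting 6 arrays, a robust prior with an intensity trend, the methods' t-test, the replicate block and leaving out each array.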

Additional observations from a re-analysis of the deposited data

How the results depend on the processing

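With the replicate block, 4 genes were called after pinching and 6 after clean injury, the changed calls being *He* and *crq* after pinching and *Hml*, *crq* and *srp* after clean injury, and the block changed no other call among the 10. The methods' t-test gave 3 genes after pinching (*He*, *drpr*, *atilla*), 5 after clean injury (*Hml*, *He*, *crq*, *drpr*, *atilla*) and 0 between the injuries at its own unadjusted threshold, which 17.8%, 22.7% and 2.11% of all probe sets passed, and 0, 0 and 0 after Benjamini-Hochberg adjustment. Without 1 array, the count stayed at 2 after pinching and lay between 1 and 4 after clean injury, with 1 without clean injury replicate 2 or untreated replicate 3. *He* passed after pinching with quantile normalization (adjusted p = 0.0437). *crq* passed after clean injury with quantile normalization (adjusted p = 0.0435), median centring (0.049), without the dimmest 40% of probe sets (0.0453), in a fit of the 6 arrays (0.0405), and without pinching replicate 1 (0.0349), pinching replicate 2 (0.0398) or untreated replicate 2 (0.0371). *PPO3* changed sign with quantile normalization, to 0.0511 after pinching, 0.0552 after clean injury and -0.0041 between the injuries, and the cause was not tested. Without 1 array, these log2 changes crossed 0. After pinching *eater* lay between -0.197 and 0.0427, *PPO3* between -0.107 and 0.0757 and *lz* between -0.285 and 0.0376. After clean injury *PPO3* lay between -0.112 and 0.0704 and *lz* between -0.00332 and 0.319. Between pinching and clean injury *Hml* lay between -0.00948 and 0.252, *NimC1* between -0.25 and 0.0551, *eater* between -0.0743 and 0.163 and *PPO3* between -0.0678 and 0.0832. Averaging probe sets gave no separate value, since each of the 10 genes has 1. Signal over background is unknown, which limits *PPO3* and *lz*.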
